A study of Mus musculus with 31 samples.

Results

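The enzymes that write CpG methylation and the proteins that guide them were followed through 31 RNA-seq libraries of mouse cells, as 7 genes out of 29267 in the gene tables. The members were taken by name: Dnmt1, Uhrf1, Uhrf2 and Hells on the maintenance side, and Dnmt3a, Dnmt3b and Dnmt3l on the de novo side. All 7 passed the filter on low counts and were among the 14914 genes tested. The cells were embryonic stem cells (ESC, passages 17 and 19), mouse embryonic fibroblasts (MEF, passage 2) and fibroblasts on their way to pluripotency, all of strain 129/OG2. The reprogramming cells carried OKSM, the factors Pou5f1, Klf4, Sox2 and Myc. They also carried either a virus labelled Tet1CD or a virus labelled Flag, which is taken here as its control. They were collected at day 3 and day 8 in medium with vitamin C (Vc), with an additive labelled DKG, or with the vehicle DMSO. Each of these 12 combinations had 2 libraries, numbered 0824 and 0826, and ESC (0822 and 0819) and untreated day 0 MEF (0824 and 0826) had 2 libraries each. MEF without reprogramming factors that were kept to day 3 in medium with Vc, DKG or DMSO gave 1 library each and enter no test, and the library treated with DKG by its treatment label is titled as 2DG. The sources used here give no doses and do not spell out DKG. They also leave unsaid whether the 2 libraries of 1 group were separate cultures, so a p-value reflects only how far those libraries scatter, and that scatter may be technical.

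Methylation of CpG sites is copied after replication by Dnmt1, which is brought to hemimethylated DNA by Uhrf1. Hells, a chromatin remodeller also called LSH, opens nucleosomal DNA to the methyltransferases, and Uhrf2 is the paralog of Uhrf1 that binds DNA but does not replace it in maintenance. New methylation is set by Dnmt3a and Dnmt3b, and Dnmt3l, which has no catalytic activity of its own, binds and stimulates both. Dnmt3b and Dnmt3l are known as genes of pluripotent cells and germ cells, and Dnmt1 and Uhrf1 as genes of dividing cells. Vitamin C and the Tet dioxygenases act on the other side of the balance, through oxidation of 5-methylcytosine.

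The start sites of the members differ in sequence. RefSeq promoter windows (GRCm38.p6, 250 bases before and 50 bases from the annotated start) matched all 7 members with 14 windows. They were searched on both strands for TTTCCCGC, TTTCGCGC, TTTGCCGC and TTTGGCGC, letters of the kind that E2F factors, regulators of S phase genes, are known to bind. A match was found in a single window each of Dnmt1, Uhrf1 and Hells, the members that moved together below. Of all 32851 promoter windows of the same length, 744 held such a match, or 2.26%. That rate was not matched for CpG content, and these windows had more CpG than 91.4%, 91.4% and 92.3% of all promoters. Whether the letters have a part in the shared pattern was not tested. The 4 stretches are shown because of that pattern, 5′ to 3′ on the strand of the gene, with the matched letters in capitals.
Dnmt1, chr9:20952824-20952853, minus strand: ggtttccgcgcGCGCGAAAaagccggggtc
Dnmt1, chr9:20952574-20952601, minus strand: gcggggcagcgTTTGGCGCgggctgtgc
Uhrf1, chr17:56304117-56304146, plus strand: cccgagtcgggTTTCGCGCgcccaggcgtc
Hells, chr19:38930917-38930946, plus strand: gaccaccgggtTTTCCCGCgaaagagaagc
The first Dnmt1 match, on the opposite strand, began 219 bases before an annotated start, the Uhrf1 match 185 bases before and the Hells match 62 bases before, while the other Dnmt1 match lay in the same window, after that start. In GENCODE M21 the matched letters of Dnmt1 and Hells fall in annotated exons of transcripts of these genes, and those of Uhrf1 in no exon of the gene. The other 11 windows of the members held none of these letters, which says only that the letters are not in those windows.

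Dnmt3b and Dnmt3l, which followed each other across the libraries, had unlike sequence before their starts. The 250 bases before the start are shown for both, with each CG in capitals. For Dnmt3l, which has several annotated starts, the first window with no GENCODE exon of the gene in these bases was taken.
Dnmt3b, chr2:153649199-153649448, plus strand: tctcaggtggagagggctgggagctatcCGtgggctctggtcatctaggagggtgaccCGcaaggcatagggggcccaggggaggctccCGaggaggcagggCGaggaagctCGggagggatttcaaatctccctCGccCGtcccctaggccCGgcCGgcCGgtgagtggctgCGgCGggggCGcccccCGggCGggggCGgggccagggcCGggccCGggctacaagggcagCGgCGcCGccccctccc
Dnmt3l, chr10:78049592-78049841, plus strand: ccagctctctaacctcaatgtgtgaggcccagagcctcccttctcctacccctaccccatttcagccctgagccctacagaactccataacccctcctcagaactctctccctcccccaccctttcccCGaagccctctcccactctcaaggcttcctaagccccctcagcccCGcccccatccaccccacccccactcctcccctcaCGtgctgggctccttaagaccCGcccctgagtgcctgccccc
The Dnmt3b stretch held 21 CpG and the Dnmt3l stretch 4. Over the whole 300-base windows, Dnmt3b had 30 CpG, more than 88.3% of all promoters, and the 3 Dnmt3l windows had 6, 4 and 3, against a median of 7 over all promoters. Methylation itself was not analysed here.

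The libraries held 3953251 to 6817952 expected counts, so 3 counts, the limit that a count of 0 allows, came to 0.54 CPM in MEF 0824. Levels below are CPM, which are counts scaled to library size with TMM factors over all libraries, unless TPM, the deposited levels per transcript length, are named, and fold changes are log2 with their standard error. Tet1 checked the Tet1CD label, with 424 to 675 CPM in the 6 day 3 Tet1CD libraries against 5.51 to 15.2 CPM in the 6 day 3 Flag libraries. At day 8 Tet1 had 179 to 615 CPM in the 6 Tet1CD libraries and 4.26 to 32.0 CPM in the 6 Flag libraries. Its level in Tet1CD cells differed by medium. At day 3 it was 424 and 465 CPM with Vc (0824, then 0826), against 662 and 556 CPM with DMSO. At day 8 it was 179 and 247 CPM with Vc, against 320.5 and 603 CPM with DMSO. The ESC libraries are named by their titles, and their files carry the 2 numbers the other way round. ESC 0822 stood apart with a summed fibroblast marker level of 4347 TPM, against 36.9 TPM in ESC 0819. Macrophage markers summed to 895 TPM in day 8 Tet1CD Vc 0824 and to 11.01 to 35.05 TPM in the other 11 day 8 libraries, and to 2712 and 565 TPM in the MEF. RNA-seq of whole cultures cannot tell fewer cells of a type from less RNA per cell. The library kit does not mark strand. The antisense genes Dnmt3aos and Dnmt3bos had 1 and 3 counts in all, while Aire, which overlaps Dnmt3l, had 53 counts against 301 for Dnmt3l over all libraries.

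**Figure D1:**
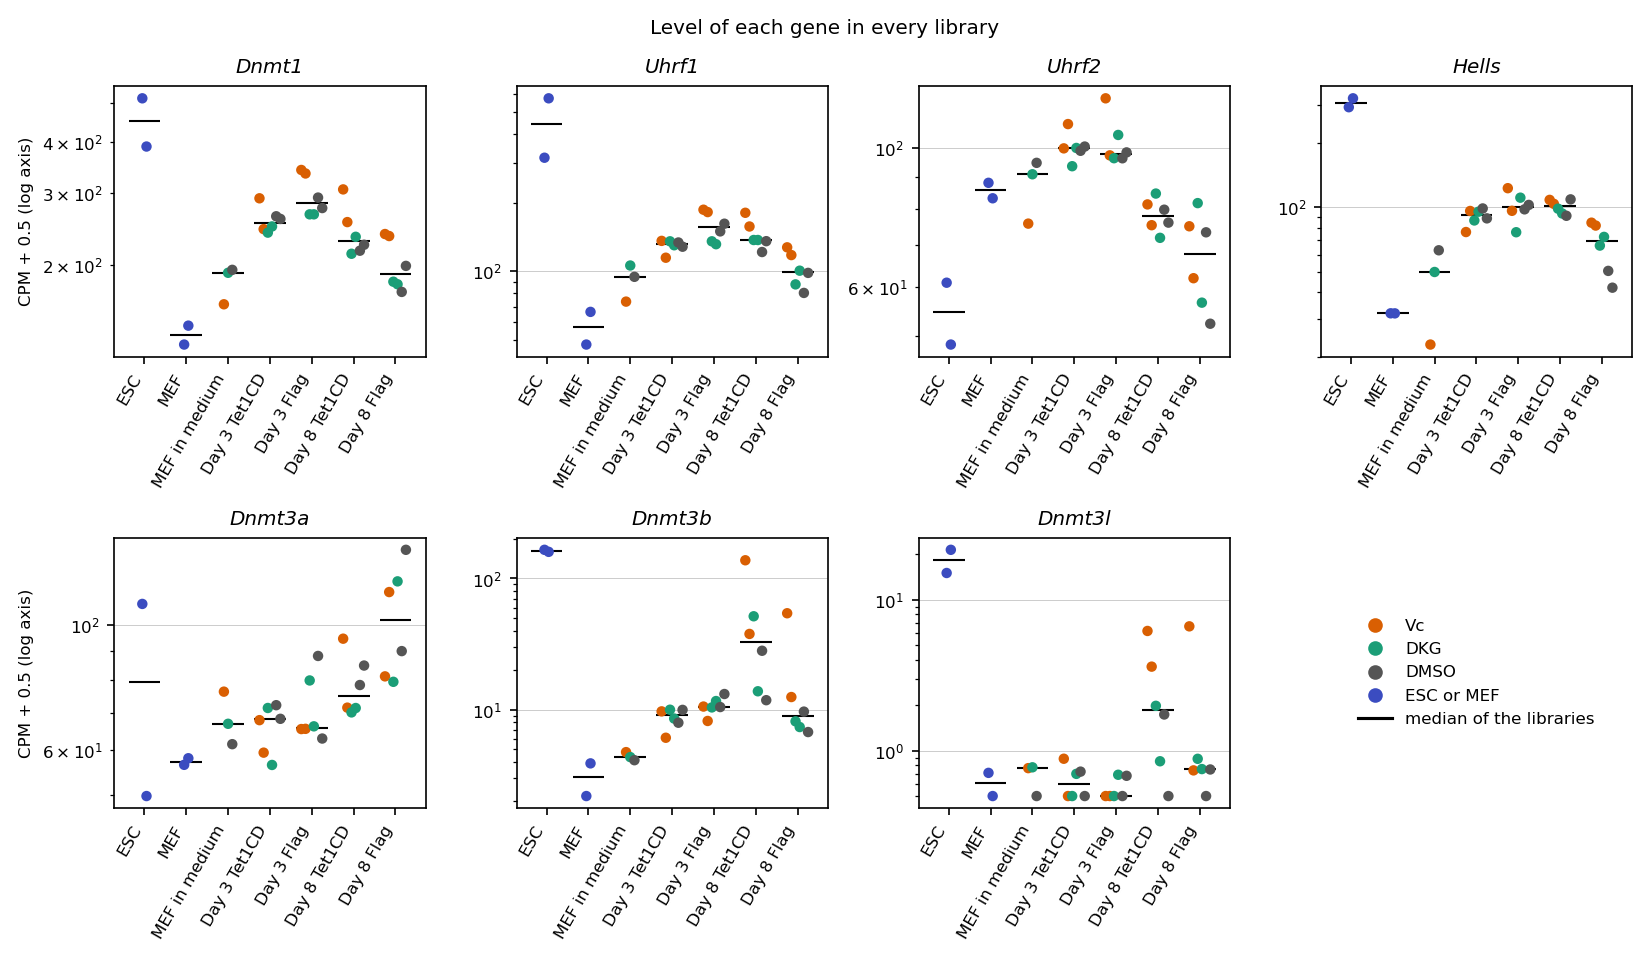
Level of each member in every library, as TMM-scaled CPM plus 0.5 on a log axis, with one panel per gene; points are libraries and bars are group medians, with ESC at the left, then untreated MEF, MEF in medium, day 3 and day 8. Dnmt1, Uhrf1, Hells, Dnmt3b and Dnmt3l are highest in ESC, Uhrf2 has its lowest median there, and the Dnmt3a values of ESC and MEF overlap.

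The first comparison asks how the methylation genes differ between the end point and the starting cells of reprogramming. ESC had more Dnmt1, Uhrf1, Hells, Dnmt3b and Dnmt3l than MEF and less Uhrf2, and Dnmt3a was not called. That made 5 of 7 members higher and 1 lower by edgeR's quasi-likelihood test, with Benjamini-Hochberg adjustment over all genes tested and a threshold of 0.05. In this comparison 52.4% of all genes tested were called, 26.8% higher and 25.7% lower, so a called gene was common.

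On the maintenance side, Dnmt1 (ENSMUSG00000004099, mm10 chr9:20907209-20959888, minus strand) had 390.2 and 512 CPM in ESC, against 128 and 142 CPM in MEF. Both ESC libraries lay above both MEF libraries, and the log2 fold change was 1.75 ± 0.15 (adjusted p = 1.156e-07). Uhrf1 (ENSMUSG00000001228, chr17:56303321-56323486, plus strand), its partner at hemimethylated DNA, had 575 and 315 CPM in ESC, against 47.1 and 65.8 CPM in MEF. The groups did not overlap, and the log2 fold change of 2.99 ± 0.23 was called (adjusted p = 6.029e-08). Hells (ENSMUSG00000025001, chr19:38930915-38971051, plus strand) had 322 and 292 CPM in ESC, against 31.4 CPM in each MEF library. Both pairs were tight and far apart. Its log2 fold change was 3.30 ± 0.19 (adjusted p = 4.212e-09). Uhrf2 (ENSMUSG00000024817, chr19:30030513-30093722, plus strand) went the other way, with 48.0 and 60.4 CPM in ESC, against 87.5 and 82.6 CPM in MEF. It fell by 0.64 ± 0.19 on the log2 scale in ESC (adjusted p = 0.009365), with no overlap, but missed the threshold without MEF 0824 (-0.60, adjusted p = 0.0626) and without ESC 0822 (-0.49, adjusted p = 0.0711).

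On the de novo side, Dnmt3a (ENSMUSG00000020661, mm10 chr12:3806007-3914443, plus strand) had 49.3 CPM in ESC 0822 and 108.5 CPM in ESC 0819, against 56.1 and 57.6 CPM in MEF. The ESC libraries lay on either side of the MEF, and the log2 difference was 0.48 ± 0.30 (adjusted p = 0.1943). Without ESC 0822, the library with fibroblast markers, Dnmt3a was called at 0.93 (adjusted p = 0.01048), and without ESC 0819 its value was -0.20. Dnmt3b (ENSMUSG00000027478, chr2:153649450-153687730, plus strand) had 159 and 165 CPM in ESC, against 1.70 and 3.40 CPM in MEF. Its log2 fold change was 5.98 ± 0.83 (adjusted p = 2.178e-05), and the ESC libraries were close to each other. Dnmt3l (ENSMUSG00000000730, chr10:78041947-78063622, plus strand) had 21.0 and 14.6 CPM in ESC, while the MEF libraries held 1 and 0 counts. The ESC held 184 counts of Dnmt3l and the MEF 1, a ratio of 200.2 after scaling to depth (95% interval 35.5 to 7950, counting error only), and the gene was called with adjusted p = 0.001251.

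Genes that work with the members differed between ESC and MEF as well. Of 9 partners of maintenance methylation, 8 were higher and none lower in ESC than in MEF, with a median log2 fold change of 1.97 against 0.0 over all genes tested. They included Pcna, the replication clamp that recruits Dnmt1 (1.97 ± 0.18), Cdca7, the partner of Hells (2.57 ± 0.27), the deubiquitinase Usp7 (1.93 ± 0.20) and the DNA ligase Lig1 (2.41 ± 0.29). Of 15 S phase genes, 12 were higher and none lower, with a median of 2.39, so Dnmt1 lay 0.64 below that median and Hells 0.91 above it. The readers of methylated CpG leaned the other way, with 1 of 8 higher and 4 lower and a median of -0.43. Mbd4, a glycosylase, was the one that was higher (2.14), and Zbtb4 fell most (-2.89). Of 7 genes of de novo targeting and its control, 3 were higher and none lower: Kdm1a, a histone demethylase, Nsd1, which methylates histone H3, and Prdm14, a repressor of the de novo enzymes in mouse ESC. Among 7 genes that supply the methyl donor, 3 were higher, including Shmt1 (3.37) and Ahcy (2.19). Of 4 genes of oxidation and removal, Tet1, Tet2 and Tdg were higher and Tet3 lower (-2.22).

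**Figure D2:**
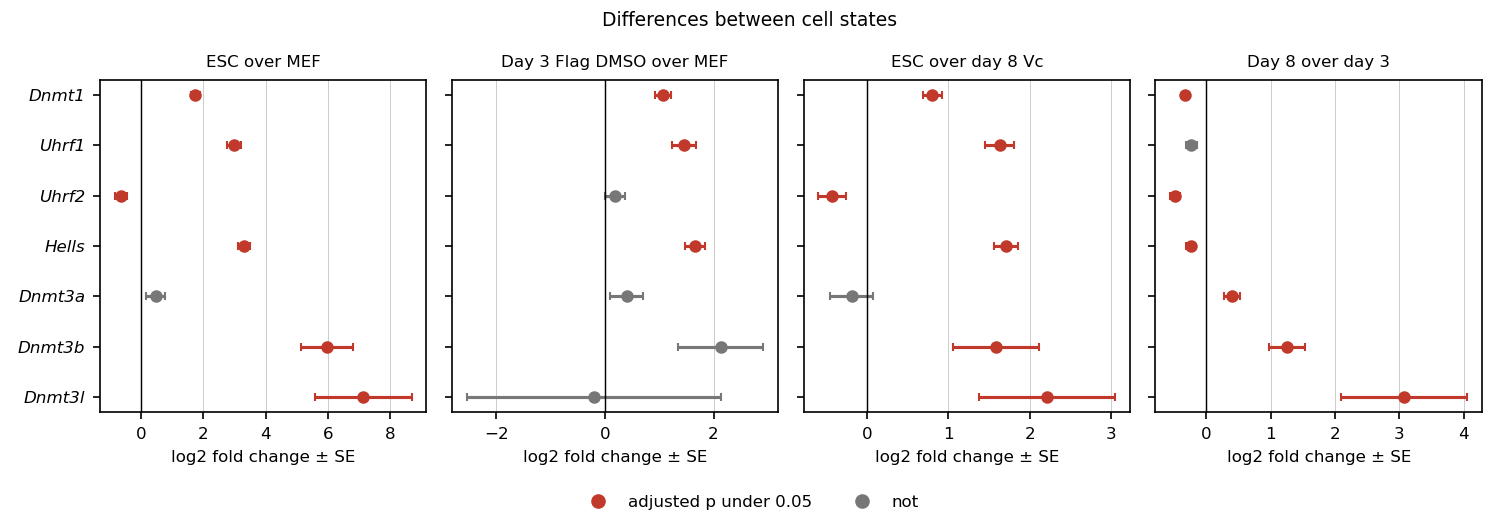
Log2 fold change of each member, with its standard error, between states of the cells: ESC over MEF, day 3 Flag DMSO over MEF, ESC over day 8 Vc, and all day 8 over all day 3 groups. Red points have an adjusted p under 0.05 and grey points do not. Dnmt1, Uhrf1 and Hells are called in the first 3 comparisons, Dnmt3b and Dnmt3l have the largest changes for ESC over MEF and for day 8 over day 3, and Uhrf2 is below 0 in 3 of the 4.

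By day 3 of reprogramming Dnmt1, Uhrf1 and Hells had risen and the other members were not called. In Flag cells with DMSO, 3 of 7 members, Dnmt1, Uhrf1 and Hells, were higher than in MEF and none lower by the same test, where 28.7% of all genes tested were called. Dnmt1 had 293 and 276 CPM in the day 3 cells, against 128 and 142 CPM in MEF. Uhrf1 had 149 and 161 CPM in the day 3 cells, against 47.1 and 65.8 CPM in MEF. Hells had 97.2 and 102 CPM in the day 3 cells, against 31.4 CPM in each MEF library. None of these pairs overlapped, and the log2 fold changes were 1.07 ± 0.14 for Dnmt1 (adjusted p = 5.38e-05), 1.46 ± 0.22 for Uhrf1 (adjusted p = 0.0001655) and 1.66 ± 0.18 for Hells (adjusted p = 1.064e-05).

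The baseline of these fold changes is untreated day 0 MEF. MEF kept to day 3 with DMSO but without factors, a single library, had 195 CPM of Dnmt1, 94.0 CPM of Uhrf1 and 62.4 CPM of Hells, above untreated MEF and below both day 3 Flag DMSO libraries for each.

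Dnmt3b had 9.98 and 12.7 CPM in the day 3 cells, against 1.70 and 3.40 CPM in MEF. The groups did not overlap, but the log2 difference of 2.13 ± 0.79 missed the threshold (adjusted p = 0.05146), and DESeq2 called it (adjusted p = 0.01695, where it called 31% of all genes). Dnmt3l had 0 and 1 counts in the day 3 cells, no more than in MEF, and in all 12 day 3 libraries it had 0 to 2 counts, with 7 at 0. Dnmt3a differed by 0.40 ± 0.30 (adjusted p = 0.352) and Uhrf2 by 0.19 ± 0.19 (adjusted p = 0.4949). Over all 12 day 3 libraries, whatever the virus or medium, Dnmt1, Uhrf1, Uhrf2, Hells and Dnmt3b lay above both untreated MEF libraries, and so did Dnmt3a in 11 of 12. The share of all genes tested that did so was not counted. MEF kept in medium also lay below every day 3 library for Dnmt1, Uhrf1, Hells and Dnmt3b. They overlapped day 3 for Uhrf2 (94.2 CPM with DMSO, against a day 3 low of 93.1 CPM). For Dnmt3a they had 61.0 to 75.7 CPM, against 56.0 to 87.7 CPM at day 3. Of the 9 maintenance partners 6 were higher than in MEF, led by Cdca7l (2.94 ± 0.25) and Cdca7 (2.40), and 11 of 15 S phase genes were higher, with a median of 1.09, from which Dnmt1 differed by -0.02 and Hells by 0.57. None of the 8 pluripotent markers was called, 5 of 8 fibroblast markers and 5 of 5 macrophage markers were lower, and the part of these cell types in the members' values was not tested.

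Between the times, the groups of members parted. Over the 6 groups of each day, Dnmt1, Uhrf2 and Hells fell and Dnmt3a, Dnmt3b and Dnmt3l rose at day 8 relative to day 3, so that 6 of 7 members were called, against 25.1% of all genes tested. Uhrf2 ran from 51.8 to 84.1 CPM at day 8 (median 74.6), against 93.1 to 120 CPM at day 3 (median 99.0). All 12 day 8 libraries lay below all 12 day 3 libraries, and it fell by 0.48 ± 0.08 on the log2 scale (adjusted p = 0.0002458). Dnmt1 ran from 172 to 306 CPM at day 8 (median 220.5), against 240.1 to 342 CPM at day 3 (median 266). Of the 12 day 8 libraries 10 lay below every day 3 library, and Dnmt1 fell by 0.32 ± 0.06 (adjusted p = 0.0006085). The fall did not hold in Tet1CD cells with Vc, where Dnmt1 had 306 CPM (0824) and 255 CPM (0826) at day 8. At day 3 these cells had 291 CPM (0824) and 245 CPM (0826). Hells had a median of 87.3 CPM at day 8 and 95.5 CPM at day 3, and the ranges overlapped. It fell by 0.24 ± 0.07 over the mean of all groups (adjusted p = 0.02238). By virus, Hells had 41.6 to 84.1 CPM at day 8 (median 68.9), against 75.8 to 122 CPM at day 3 (median 99.5) in Flag cells, but 90.6 to 108 CPM at day 8 (median 100.5), against 76.0 to 98.1 CPM at day 3 (median 91.4) in Tet1CD cells. Uhrf1 had a median of 124 CPM at day 8 and 135 CPM at day 3, a log2 difference of -0.23 ± 0.09 (adjusted p = 0.06151). Its mean was 102 CPM at day 8 and 157 CPM at day 3 in Flag cells, but 144 CPM at day 8 and 129 CPM at day 3 in Tet1CD cells. Libraries with the same number deviated together within a day, and with that number as a block within each day Uhrf1 was called too (-0.23 ± 0.05, adjusted p = 0.0003088), in a fit that called 55.5% of all genes. For a difference between days, that block takes the shared deviation out of the scatter, and the test without a block treats such libraries as independent. Neither p-value therefore reflects how far the library numbers of a day differ, and the p-values of this comparison may be too small.

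Dnmt3b ran from 6.26 to 137 CPM at day 8 (median 12.7), against 5.62 to 12.7 CPM at day 3 (median 9.49). The lowest day 8 libraries lay among those of day 3 and the highest far above them, and Dnmt3b rose by 1.26 ± 0.28 over the mean of all groups (adjusted p = 0.003715). This direction did not hold in Flag cells without Vc, where Dnmt3b had 6.26 to 9.17 CPM in 4 day 8 libraries, all below the 9.91 to 12.7 CPM of 4 day 3 libraries. In Tet1CD cells it had 11.3 to 137 CPM at day 8, all above the 5.62 to 9.50 CPM at day 3. The difference between the viruses over time was not tested. Dnmt3a ran from 69.5 to 135 CPM at day 8 (median 82.5), against 56.0 to 87.7 CPM at day 3 (median 66.5). It rose by 0.40 ± 0.12 (adjusted p = 0.0237). Dnmt3l rose by 3.07 ± 0.98 (adjusted p = 0.03019), with at most 6.17 CPM at day 8, where 2 of 12 libraries were at 0. Without day 8 Tet1CD DMSO 0824 or day 8 Flag DMSO 0826, the library left in that group held 0 counts of Dnmt3l. The fit then gave standard errors of 4733 and 5152, so these omissions cannot say whether its call rests on those libraries. Single libraries carried some of the other calls. Dnmt3a was not called without any one of 5 libraries of number 0826 (day 3 Flag DMSO, day 3 Tet1CD DKG, and day 8 Flag DMSO, Vc and DKG), with log2 values between 0.34 and 0.38 and adjusted p up to 0.0579. Hells was not called without day 3 Flag Vc 0824, day 8 Tet1CD DMSO 0824, or number 0826 of day 3 Flag DKG, day 3 Tet1CD Vc or day 3 Tet1CD DKG, with values between -0.18 and -0.22.

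The S phase genes fell over the same interval, with 12 of 15 lower at day 8 and a median of -0.34, against 0.011 over all genes tested. Dnmt1 lay 0.01 and Hells 0.10 from that median, and Uhrf2 0.14 below it. Cdc6, which loads the replicative helicase, was lower by 0.53, and Lig1 by 0.59. Of the 8 pluripotent markers 7 were higher at day 8, with a median of 3.47, among them Tdgf1 (5.30), Utf1 (6.46) and Lin28a (5.81). Dnmt3a, Dnmt3b and Dnmt3l thus changed in the direction of the pluripotent markers. Dnmt1, Uhrf2 and Hells changed in that of the S phase genes, and the part of either list in the members' values was not tested.

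Vitamin C was compared with DMSO at each time, over both viruses. At day 3 none of the 7 members was called, where 0.121% of all genes tested were called and 428 had an unadjusted p under 0.05. The day 3 differences were small against their errors, 0.14 ± 0.10 for Dnmt1, -0.27 ± 0.50 for Dnmt3b and 0.00 ± 0.12 for Hells, and none was called with the block within days either (3.01% of all genes).

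At day 8, Dnmt3b had 53.8 and 12.0 CPM in Flag cells with Vc (0824, then 0826), against 9.17 and 6.26 CPM in Flag cells with DMSO. In Tet1CD cells it had 137 and 37.3 CPM with Vc, against 27.6 and 11.3 CPM with DMSO. Within each virus both Vc libraries were above both DMSO libraries, and in each of these 4 groups 0824 was above 0826. The log2 difference over both viruses was 2.12 ± 0.48 and missed the threshold in the test without a block (adjusted p = 0.1162), in which 0.201% of all genes and none of the 7 members were called and 910 genes had an unadjusted p under 0.05. With the library number as a block within days, Dnmt3b rose by 2.08 ± 0.22 (adjusted p = 8.386e-06), and it was higher with Vc in 4 of 4 same-numbered pairs, by 0.89 to 2.49. By virus, the block gave 2.05 ± 0.35 in Flag cells (adjusted p = 0.003082) and 2.11 ± 0.28 in Tet1CD cells (adjusted p = 0.000168). The difference without a block ranged from 1.39 to 2.52 when single libraries were left out and was called without Flag Vc 0826 (adjusted p = 0.02601) and without Tet1CD Vc 0826 (adjusted p = 0.02339).

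That block called 5 of 7 members higher with Vc at day 8, against 8.81% of all genes called: Dnmt1, Uhrf1, Hells, Dnmt3b and Dnmt3l. Dnmt1 had 236 to 306 CPM in the 4 Vc libraries, against 172 to 224 CPM in the 4 DMSO libraries. These did not overlap, and the blocked log2 change was 0.37 ± 0.07 (adjusted p = 0.002687), against 0.36 ± 0.10 without a block (adjusted p = 0.2673). Uhrf1 had 127 and 117 CPM in Flag cells with Vc, against 79.8 and 97.9 CPM with DMSO. It had 180.2 and 157 CPM in Tet1CD cells with Vc, against 121 and 135 CPM with DMSO. Uhrf1 did not overlap within a virus and rose by 0.46 ± 0.08 under the block (adjusted p = 0.001247), with an adjusted p of 0.4909 without it.

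Hells had 84.1 and 81.5 CPM in Flag cells with Vc, against 49.9 and 41.6 CPM with DMSO. In Tet1CD cells it had 108 and 103 CPM with Vc, against 90.6 and 108 CPM with DMSO. The Vc libraries were higher in Flag cells and overlapped the DMSO libraries in Tet1CD cells. The blocked log2 values were 0.86 ± 0.17 in Flag cells (adjusted p = 0.0095) and 0.12 ± 0.15 in Tet1CD cells (adjusted p = 0.7339). The test of that difference did not call it (-0.74 ± 0.23, adjusted p = 0.2733 under the block), where the block called 0.171% of all genes. Over both viruses Hells rose by 0.49 ± 0.11 under the block (adjusted p = 0.01001), and DESeq2, with 0.644% of all genes called, called Hells (adjusted p = 0.04842) and Dnmt3b (adjusted p = 0.002359).

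Dnmt3l was found mainly in Vc libraries at day 8. It had 32 and 1 counts in Flag cells with Vc, against 0 and 1 with DMSO, and 33 and 17 counts in Tet1CD cells with Vc, against 9 and 0 with DMSO. All but 1 of the Vc counts in Flag cells lay in library 0824. Summed over both libraries and scaled to depth, the ratio of Vc to DMSO was 39.0 in Flag cells (33 against 1 counts, 95% interval 6.52 to 1585) and 5.57 in Tet1CD cells (50 against 9 counts, 95% interval 2.71 to 12.9), counting error only. The blocked test called Dnmt3l over both viruses (adjusted p = 0.003464), and the test without a block did not (adjusted p = 0.2524). Dnmt3a and Uhrf2 were not called, with -0.08 ± 0.21 and 0.07 ± 0.13 without a block.

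By virus, no member was called without a block in Flag cells (0% of all genes, 371 with an unadjusted p under 0.05) or in Tet1CD cells (0.174%). Under the block, 3 members were higher with Vc in Flag cells, where 2.02% of all genes were called: Dnmt3b, Hells and Uhrf1 (0.49 ± 0.12, adjusted p = 0.0342). In Tet1CD cells, where 6.6% were called, 4 were higher: Dnmt3b, Dnmt1 (0.37 ± 0.10, adjusted p = 0.03106), Uhrf1 (0.43 ± 0.11, adjusted p = 0.0253) and Dnmt3l (adjusted p = 0.04908).

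**Figure D3:**
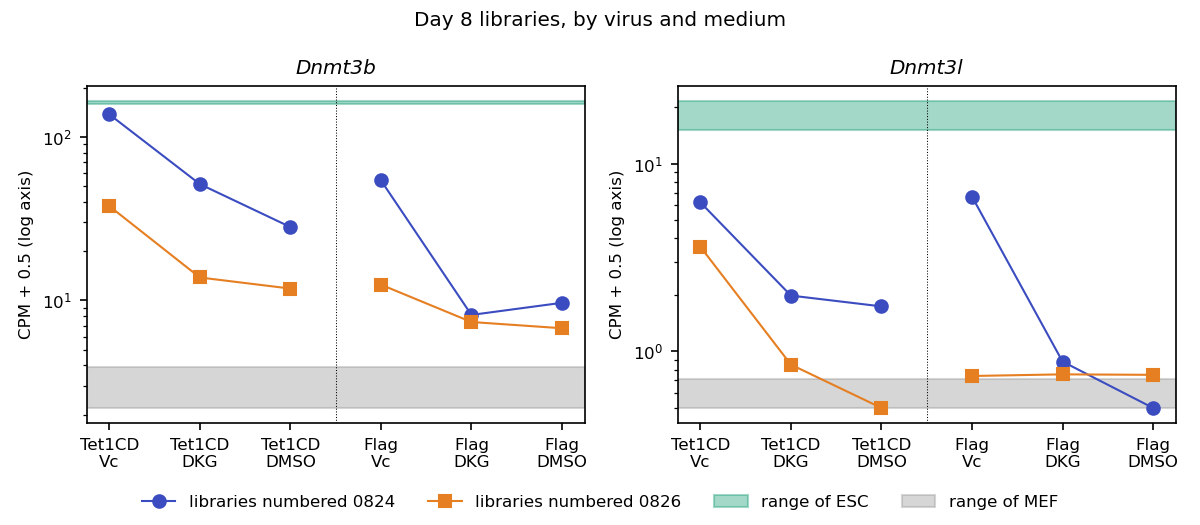
Dnmt3b (left) and Dnmt3l (right) in the day 8 libraries, as CPM plus 0.5 on a log axis, with libraries of the same number joined across media within a virus; the green band spans the ESC libraries and the grey band the MEF libraries. Dnmt3b is higher with Vc than with DMSO in 4 of 4 pairs, and library 0824 of Tet1CD cells with Vc, at 137 CPM, comes closest to the ESC band.

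The same libraries differed in other genes. The summed level of the 8 pluripotent markers was 276 TPM in day 8 Flag Vc 0824 and 29.0 TPM in 0826, against 18.6 and 3.44 TPM with DMSO. In Tet1CD cells it was 346 and 108 TPM with Vc, against 90.9 and 20.3 TPM with DMSO. From highest to lowest, these 8 libraries stood in the same order for this sum and for Dnmt3b. The summed S phase level was 1417 and 1341 TPM in Tet1CD cells with Vc, against 1091 and 1225 TPM with DMSO, and 1042 and 1001 TPM in Flag cells with Vc, against 766 and 877 TPM with DMSO. Under the block 8 of 15 S phase genes and 8 of 8 pluripotent markers were higher with Vc, 5 of 8 fibroblast markers were lower, and 3 of 9 maintenance partners were higher. The macrophage sum of 895 TPM in day 8 Tet1CD Vc 0824 falls in the library with the highest Dnmt3b. In Flag Vc 0824 that sum was 18.9 TPM, and Dnmt3b had 53.8 CPM there. The part of pluripotent, dividing or other cells in the members' values was not tested.

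The change with Vc was set against time. For Dnmt3b the day 8 difference exceeded the day 3 difference by 2.38 ± 0.69 without a block, where no gene was called and 173 had an unadjusted p under 0.05 (DESeq2 called 1 gene and none of the members). With the block within days it exceeded it by 2.33 ± 0.35 (adjusted p = 0.01334), and Dnmt3b was the 1 of 7 members called, where 0.136% of all genes were called.

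The Tet1CD virus was compared with Flag over the 3 media of each day. At day 8, Hells, Dnmt3b and Uhrf1 were higher in Tet1CD cells and no member was lower, 3 of 7 against 1.76% of all genes tested. Hells ran from 90.6 to 108 CPM in the 6 Tet1CD libraries (median 100.5), against 41.6 to 84.1 CPM in the 6 Flag libraries (median 68.9). The groups did not overlap, and the log2 change of 0.64 ± 0.10 (adjusted p = 0.002188) was called whichever single library of the 12 was left out. Dnmt3b ran from 11.3 to 137 CPM in Tet1CD libraries (median 32.5), against 6.26 to 53.8 CPM in Flag libraries (median 8.41). The ranges overlapped widely, but within each medium and number the Tet1CD library was the higher in 6 of 6 pairs, by 0.81 to 2.66, and Dnmt3b rose by 1.63 ± 0.39 (adjusted p = 0.0388). Uhrf1 ran from 121 to 180.2 CPM in Tet1CD libraries (median 137), against 79.8 to 127 CPM in Flag libraries (median 99.0). It rose by 0.51 ± 0.12 (adjusted p = 0.04111), and 5 of 6 Tet1CD libraries were above every Flag library.

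The calls of Dnmt3b and Uhrf1 were near the threshold. Dnmt3b remained called in 4 of 12 omissions, those of Flag Vc 0824 (2.12) and of number 0826 of the 3 Tet1CD groups, and lost the call in the other 8, with log2 values between 1.21 and 1.74 and adjusted p up to 0.1881. Uhrf1 remained called only without Tet1CD Vc 0826 (0.55, adjusted p = 0.04877), and in the other 11 omissions it had values between 0.47 and 0.57 and adjusted p up to 0.1247. With the number as a block within days, 6 of 7 members were called, against 23% of all genes: Hells (0.65 ± 0.09), Dnmt3b (1.63 ± 0.19, adjusted p = 6.339e-06), Uhrf1 (0.53 ± 0.07, adjusted p = 1.36e-05), Dnmt1 (0.28 ± 0.06, adjusted p = 0.002144) and Uhrf2 (0.24 ± 0.07, adjusted p = 0.01833) were higher, and Dnmt3a was lower (-0.36 ± 0.11, adjusted p = 0.01903). Without a block Dnmt1 differed by 0.27 ± 0.08 (adjusted p = 0.13) and Dnmt3a by -0.40 ± 0.17 (adjusted p = 0.3474). Dnmt1 was higher in Tet1CD cells in 6 of 6 pairs and Dnmt3a in 1 of 6. Of 15 S phase genes 6 were higher in Tet1CD cells and none lower, with a median of 0.48, and 14 of 15 under the block.

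At day 3 no member was called between Tet1CD and Flag cells without a block, where 0.697% of all genes were called and 1162 had an unadjusted p under 0.05. With the block, where 16.3% were called, Dnmt1 was lower in Tet1CD cells (-0.18 ± 0.06, adjusted p = 0.03659) and so was Uhrf1 (-0.26 ± 0.06, adjusted p = 0.009014). Under the same block 5 of 15 S phase genes were lower in Tet1CD cells, 3 of 9 maintenance partners were lower and 5 of 8 fibroblast markers were higher. Dnmt3b was higher in Tet1CD cells in 0 of 6 day 3 pairs, with log2 differences of -0.44 to -0.06, and was not called. The difference between the days was not tested for Tet1CD. Whether the effect of Tet1CD depended on Vc was tested within each day, and no member was called at day 3 (0.101% of all genes) or at day 8 (0.0201%), with 0.07 ± 0.96 for Dnmt3b at day 8. Tet1 itself was lower with Vc than with DMSO in Tet1CD cells, as given above, so these media were not compared at equal Tet1 levels.

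**Figure D4:**
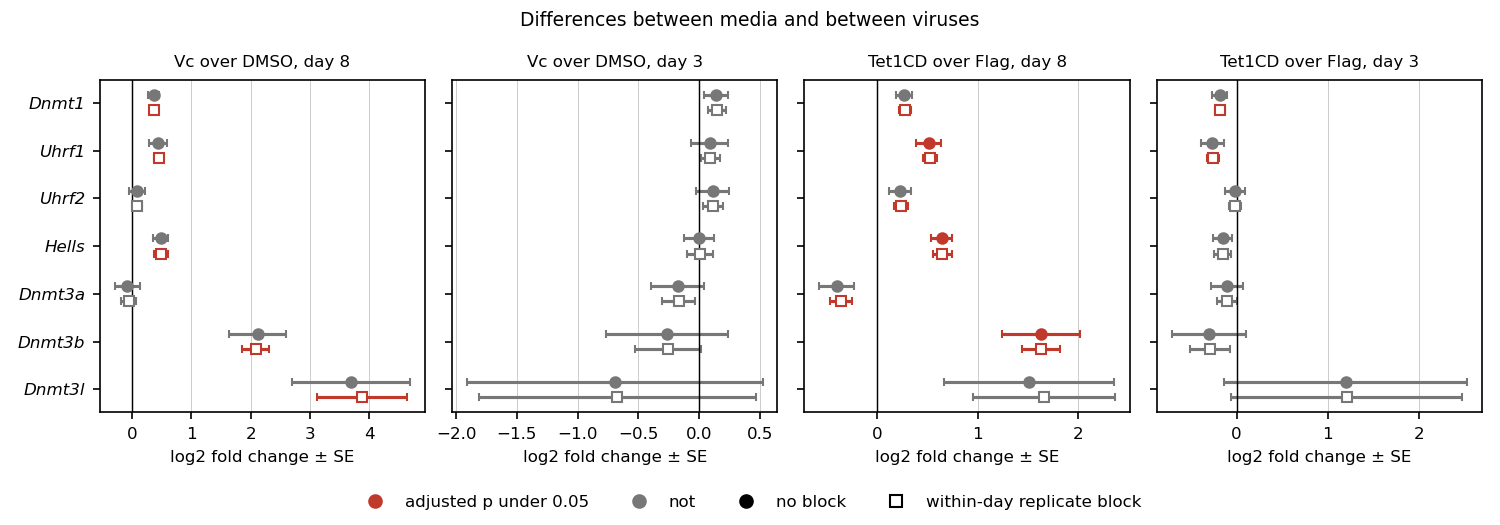
Log2 fold change of each member with its standard error for Vc over DMSO at day 8 and day 3 and for Tet1CD over Flag at day 8 and day 3; filled circles are the test without a block, open squares the test with the library number as a block within days, and red marks an adjusted p under 0.05. Dnmt3b and Dnmt3l have the largest values at day 8, and no circle is red at day 3, where Dnmt3l had at most 2 counts.

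DKG was compared with DMSO in the same way and called none of the 7 members at either day. It also called none of the genes tested (0%), with an unadjusted p under 0.05 for 52 genes at day 3 and 86 at day 8, and DESeq2 called none. At day 8 Dnmt3b had 7.66 and 6.88 CPM in Flag cells with DKG, against 9.17 and 6.26 CPM with DMSO, and 51.0 and 13.3 CPM in Tet1CD cells with DKG, against 27.6 and 11.3 CPM with DMSO. The Dnmt3b libraries overlapped in each virus, with a log2 difference of 0.31 ± 0.49. Hells had 65.6 and 72.1 CPM in Flag cells with DKG, against 49.9 and 41.6 CPM with DMSO, and 97.9 and 92.9 CPM in Tet1CD cells with DKG, against 90.6 and 108 CPM with DMSO. The Hells libraries did not overlap in Flag cells and overlapped in Tet1CD cells, and the log2 difference over both was 0.27 ± 0.13.

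The distance left to ESC was measured against the day 8 cells with Vc, over both viruses. ESC had more Dnmt1, Uhrf1, Hells, Dnmt3b and Dnmt3l and less Uhrf2, so that 5 of 7 members were higher and 1 lower, against 44.7% of all genes called. The 2 ESC libraries had 390.2 and 512 CPM of Dnmt1, against 236 to 306 CPM in the 4 day 8 Vc libraries, a log2 difference of 0.80 ± 0.12 (adjusted p = 4.375e-05). Hells had 322 and 292 CPM in ESC, against 81.5 to 108 CPM in day 8 Vc cells, a log2 difference of 1.71 ± 0.15 (adjusted p = 1.16e-07). Uhrf1 differed by 1.63 ± 0.18 (adjusted p = 1.835e-06). For none of these 3 did a day 8 Vc library reach an ESC library.

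Dnmt3b had 159 and 165 CPM in ESC, against 12.0 to 137 CPM in day 8 Vc cells, a difference of 1.59 ± 0.53 (adjusted p = 0.02054). It was not called without Flag Vc 0826 (1.23), Tet1CD Vc 0826 (1.26) or ESC 0819 (1.56), with adjusted p up to 0.0808. Dnmt3l differed by 2.21 ± 0.84 (adjusted p = 0.04023) and remained called in 1 of 6 omissions, that of Flag Vc 0824 (4.03). In the other 5 it lay between 1.75 and 2.47. Uhrf2 was lower in ESC (-0.43 ± 0.17, adjusted p = 0.04529) and remained called without Flag Vc 0826 (-0.50) or ESC 0819 (-0.60), but not without ESC 0822 (-0.28), Flag Vc 0824 (-0.36), Tet1CD Vc 0824 (-0.40) or Tet1CD Vc 0826 (-0.46). Dnmt3a was not called (-0.19 ± 0.26, adjusted p = 0.5862), except without ESC 0819 (-0.86, adjusted p = 0.03263). This comparison and that with MEF share the ESC libraries.

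Levels of different genes were set side by side in TPM, which divides by transcript length. Dnmt3b made up 68.3% and 80.8% of the summed TPM of Dnmt3a and Dnmt3b in the 2 ESC libraries, against 3.32% and 7.96% in MEF. The share was 13.1% to 29.0% in the 12 day 3 libraries (median 18.6%). At day 8 it was 21.9% to 58.7% in Tet1CD cells (median 42.9%), against 10.2% to 50.2% in Flag cells (median 14.6%). By medium it was 15.5% to 58.7% in day 8 cells with Vc (median 48.8%), against 10.2% to 38.4% with DMSO (median 18.8%). Dnmt3b was the more abundant of the pair in both ESC libraries and in 3 day 8 libraries of number 0824, Tet1CD with Vc, Tet1CD with DKG (56.3%) and Flag with Vc, and in none of the day 3 or MEF libraries. The mean isoform length that RSEM assigned to Dnmt3a ran from 3935 to 8815 bases between libraries, which enters its TPM.

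The paralogs Uhrf1 and Uhrf2 changed order as well. Uhrf1 had 4.94 and 10.8 times the TPM of Uhrf2 in ESC, against 0.484 and 0.629 times in MEF. It had 0.895 to 1.53 times in the day 3 libraries (median 1.15) and 0.891 to 1.83 times in the day 8 libraries (median 1.31). The reprogramming cells thus lay between untreated MEF and ESC with no overlap with either. MEF kept in medium without factors had 0.916 to 1.17 times, within the ranges of the reprogramming cells. Per Dnmt1, Uhrf1 had 0.981 and 2.35 times the TPM in ESC, against 0.614 and 0.720 times in MEF.

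**Figure D5:**
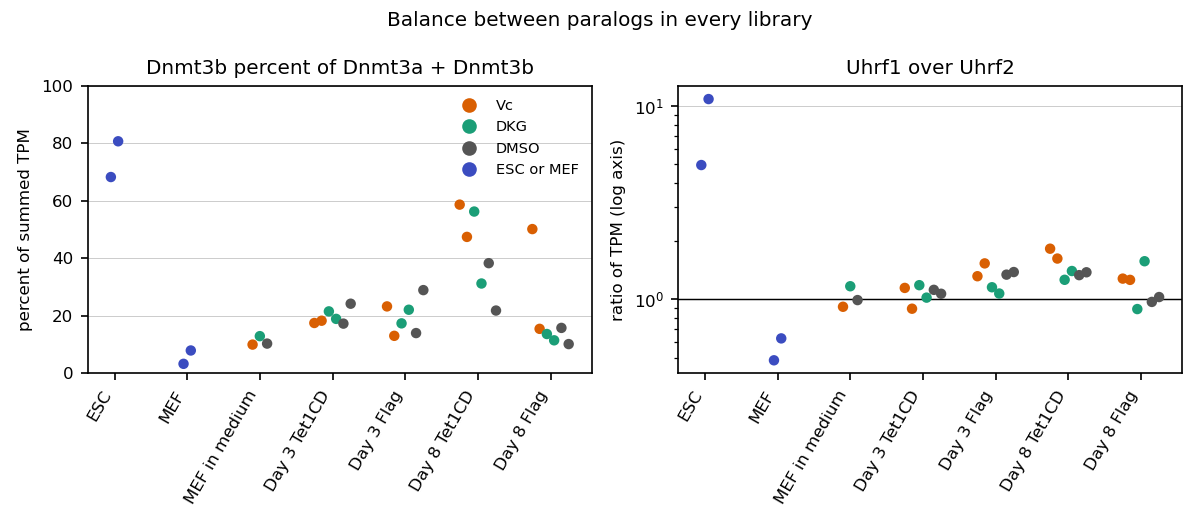
Share of Dnmt3b in the summed TPM of Dnmt3a and Dnmt3b (left, in percent) and ratio of Uhrf1 to Uhrf2 TPM (right, log axis), with one point per library. The ESC libraries, at the left, are at the top of each panel, the untreated MEF libraries beside them are at the bottom, and the day 8 Vc libraries spread from 15.5% to 58.7% in the left panel.

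By the order of the group means, Dnmt1 was highest in ESC (451 ± 86.2 CPM, SD, n = 2), then in day 3 Flag cells with Vc (338 ± 4.74 CPM), and lowest in MEF (135 ± 10.2 CPM). Uhrf2 was highest in day 3 Flag cells with Vc (108 CPM) and lowest in ESC (54.2 CPM), with MEF (85.1 CPM) below all day 3 groups and above all day 8 groups. Hells had 307 CPM in ESC, and the lowest reprogramming group was day 8 Flag cells with DMSO (45.7 CPM), above MEF (31.4 CPM). For Dnmt3b the order began with ESC (162 CPM) and the day 8 groups Tet1CD Vc (87.2 ± 70.6 CPM), Flag Vc (32.9 ± 29.6 CPM), Tet1CD DKG (32.2 CPM) and Tet1CD DMSO (19.5 CPM), each of which overlapped the next among these day 8 groups, and ended with MEF (2.55 CPM). Dnmt3a had its highest mean in day 8 Flag cells with DMSO (112 ± 32.5 CPM) and its lowest in MEF (56.8 CPM), and most neighbours in its order overlapped.

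Across the 28 libraries of the fit the members fell into patterns, given here only as a description. Libraries of a group share their cell type and treatment, and the extremes are ESC and MEF. Pearson's r of log2 CPM was 0.94 between Uhrf1 and Hells, 0.91 between Dnmt1 and Uhrf1 and 0.88 between Dnmt1 and Hells. Dnmt3b and Dnmt3l had 0.90, and Uhrf2 had -0.54 with Dnmt3l. The patterns were not separate, since Dnmt3b also had 0.77 with Uhrf1 and 0.76 with Hells. Among all genes tested, the 5 most like Dnmt1 were Mcm10, Timeless, Mcm5, Lmnb1 and Ncapd2 (r of 0.94 to 0.95). Those most like Uhrf1 were Mcm5, Timeless, Mcm3, Mybl2 and Rfc5 (0.95 to 0.96), and those most like Hells were Brca2, Etaa1, Nasp, Brca1 and Esco2 (0.94 to 0.95). Mcm3, Mcm5 and Mcm10 are parts of the replication machinery and Brca1 and Brca2 act in repair by recombination. The genes most like Dnmt3b were Zscan10, Trim71, Gm37697, Lin28a and 4930509G22Rik (0.93 to 0.94), and those most like Dnmt3l were Trap1a, Foxh1, Lefty2, Lin28a and Mup6 (0.93 to 0.94). Dnmt3a and Uhrf2 had no neighbour above 0.88, with Aoc2 at 0.87 and Vps36 at 0.88 as their nearest.

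MEF kept to day 3 in medium without reprogramming factors had 1 library per additive and so no test. Dnmt1 had 160.2 CPM with Vc, 191 CPM in the library labelled DKG and 195 CPM with DMSO. Uhrf1 had 73.1, 106 and 94.0 CPM in the same order, and Hells had 22.3, 49.3 and 62.4 CPM, so that the Vc library was the lowest of the 3 for each. The summed S phase level was 686, 833 and 870.4 TPM in that order. Dnmt3b had 4.25, 3.86 and 3.62 CPM, and Dnmt3l had 1, 1 and 0 counts, near the levels of untreated MEF.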

How the data were processed

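Per the labels' protocols, RNA was taken with Trizol and 1 ug of total RNA went into a TruSeq RNA library, which does not mark strand. Per the submitters' processing notes, reads were aligned to mm10 with Bowtie and quantified with RSEM, with versions not given in these sources. The authors deposited 1 table per library with expected counts and TPM per gene. These expected counts were rounded before testing. Rows without a symbol (511 of 29267) took at most 0.392% of a library. Comparisons used edgeR's quasi-likelihood test (edgeR 4.0.16, R 4.3.3), with TMM scaling, filterByExpr and 1 mean for each of 14 groups of 2 libraries (28 libraries), and p-values were adjusted by Benjamini-Hochberg over 14914 genes within a comparison, with a threshold of 0.05. Each standard error was the log2 fold change divided by the root of F. CPM were scaled over all 31 libraries. The TPM are the deposited values, and ratios and marker sums were taken from them. The labels give numbers 0824 and 0826 without explanation, and these were checked as pairs. The differences between the 2 numbers correlated between groups with r of 0.356 to 0.504 within day 3 and 0.345 to 0.687 within day 8, but -0.008 to 0.178 across days, so the pairing used is within a day and comes from the data. The block within days was fitted over 24 libraries and 14015 genes. Alternatives were RLE size factors, DESeq2 1.42.0, no filter, limma 3.58.1 on log2(TPM + 1), a block over 26 libraries and leaving out each library. The fit was also run on simulated data, in which same-numbered libraries shared no deviation, so that run cannot check the pairing the block assumes. The members, the gene lists and the comparisons were chosen with earlier results of these data known. Named genes are the members, the 5 genes most like each, and called members of the lists, at most 4 a list and comparison. Intervals of count ratios cover counting error only. A result on 1 gene of the lists is not reported here.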

Additional observations from a re-analysis of the deposited data

Results flagged for a closer look

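The change of Dnmt3b with Vc differed between the days in a test of the difference itself. With the library number as a block within days, the day 8 log2 change exceeded the day 3 change by 2.33 ± 0.35 (adjusted p = 0.01334), and without the block it was not called.

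The 3 libraries of MEF kept in medium enter no comparison, and for 4 members all 3 lay above both untreated MEF libraries. The lowest of the 3 had 160.2 CPM of Dnmt1, against at most 142 CPM in untreated MEF. For Uhrf1 it had 73.1 CPM, against at most 65.8 CPM. For Dnmt3a it had 61.0 CPM, against at most 57.6 CPM, and for Dnmt3b 3.62 CPM, against at most 3.40 CPM. The gaps of Dnmt3a and Dnmt3b were small. With 1 library per additive these values have no replicate check, and the share of all genes tested that lay above in this way was not counted.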

How the results depend on the processing

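Leaving single libraries out aside, the number of members called was recomputed 97 times over 17 comparisons, and 85 of these counts were within 1.5 times the count reported. For day 8 over day 3, limma on log2(TPM + 1) called 3 members. In what follows, the share of all genes called by the same fit is given in brackets. For Vc over DMSO at day 8 over both viruses, DESeq2 called 2 (0.644%) and no filter 1. The replicate block over 26 libraries called 4 (1.36%) and the within-day block 5 (8.81%). In Flag cells alone DESeq2 called 1 (0.0536%) and the within-day block 3 (2.02%). In Tet1CD cells the within-day block called 4 (6.6%). For Tet1CD over Flag the within-day block called 2 at day 3 (16.3%) and 6 at day 8 (23%), where limma called 1. For the change of Vc between days the within-day block called 1 (0.136%). For day 8 over day 3 the within-day block called Uhrf1 as well, for 7 members (55.5%), with the limit given above. The shares under limma, without the filter and with single libraries left out were not counted. The within-day block, and the pairing it assumes, changed no other call. Leaving out single libraries gave 5 to 6 members for ESC over MEF, 3 to 3 for day 3 Flag DMSO over MEF, 4 to 6 for day 8 over day 3, 3 to 5 for ESC over day 8 Vc, 1 to 3 for Tet1CD at day 8, 0 to 1 for Vc at day 8 and 0 to 0 in the others. No member changed sign past the threshold. With 2 libraries per group, and Dnmt3l at 0 to 33 counts outside ESC, depth and number of libraries limit the calls, and the cause of the changed counts was not tested.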
